A study of Mus musculus with 15 samples.

Results

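CD138+ plasmablasts, the antibody-secreting cells that form when B cells are activated, were compared with naive B cells of mouse spleen across the genes that these libraries measured. A gene was taken as a member when it reached at least 1 RPKM (read counts of a gene scaled by its exon length and by the assigned reads of the library) in at least 3 of the 6 libraries of these groups. The rule found 10601 members among the 21761 genes of the table. Of these, 9672 reached 1 RPKM in libraries of both groups, 365 only in CD138+ libraries and 564 only in naive libraries, so that the genes of the last 2 kinds had to differ and support nothing by their number. At the limit of the rule, 977 members reached 1 RPKM in exactly 3 libraries and 292 genes outside it in 2.

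The series holds 15 poly(A) RNA libraries of B cells. Apart from the naive ones, the cells were treated with GSK-J4 or with its solvent DMSO. GSK-J4 is an inhibitor of the demethylases that remove trimethylation of lysine 27 on histone H3. The CD138+ group was made of CD43- splenic B cells of wild-type female C57BL/6J mice that were cultured for 3 days with LPS, IL-2, IL-5 and DMSO and then enriched with magnets for the surface protein CD138. The GL7+ group came from the same kind of culture with DMSO, enriched for GL7, a surface glycan of activated B cells, and its values are given beside the others. The naive group consisted of CD43- splenic B cells of the same strain and sex, labelled as not stimulated and not treated with a drug, DMSO included. Each group had 3 libraries, labelled as mouse 1, 2 and 3, and the ages of the mice were not given in the sources used here. Enrichment by a magnet is not a sort for purity, and the fraction of CD138+ cells after it was not given either. The naive cells differ from the CD138+ cells in stimulus, solvent and enrichment at once, and these cannot be told apart. The labels give the same culture protocol for all samples, and whether the naive cells were kept in culture is not clear from them.

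Naive B cells are small resting cells that carry an antigen receptor, present antigen on MHC class II and recirculate through lymphoid tissue. After activation by a microbial product such as LPS they divide, and some of them become plasmablasts. The factors Blimp-1, IRF4 and XBP1 then drive secretion of antibody, while the factors that hold B cell identity, PAX5 among them, are turned off. Immunoglobulin heavy and light chain genes were not analysed here.

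Most members differed between the groups. On log2(RPKM + 1) values, limma with Benjamini-Hochberg adjustment over all genes tested called 4230 members higher in CD138+ libraries (39.9%) and 4701 lower (44.3%), together 8931 (84.2%), at an adjusted p under 0.05. With a difference of at least 2-fold as well, 1851 members were higher (17.5%) and 2000 lower (18.9%), together 3851 (36.3%). The values of the groups did not overlap for 8803 members (83.0%). At least 4-fold differences were called for 622 members in the upward and 549 in the downward direction, and at least 16-fold differences for 63 in each. The median log2 difference over all members was −0.06. Each count of a gene list below is to be read against these shares. Outside the markers of other cell types, at most 3 members of a list reached 1 RPKM in libraries of 1 group only. Such genes had to be higher in that group, also where they are named singly below.

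The libraries held between 9676747 and 11636299 assigned reads in the CD138+ group, between 9806767 and 11519359 in the GL7+ group, and 13190023, 1318002 and 6175183 in the naive group. For a gene of the median length of 2703 bases, 1 RPKM stood for 26.2 to 31.5 reads in the CD138+ libraries and for 35.7, 3.56 and 16.7 reads in the naive libraries, so that low values of naive replicate 2 rest on few reads. Pearson's r between log2 values was 0.995 to 0.996 within the CD138+ group, 0.977 to 0.992 within the naive group and 0.73 to 0.745 between them, over genes of each pair of libraries. The first principal component of the 6 libraries carried 94.8% of the variance. RPKM are shares of the reads of a library, with no spike-in named in the labels, so a difference says nothing of RNA per cell. In bulk RNA, fewer cells that express a gene and less of its RNA per cell cannot be told apart.

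**Figure D1:**
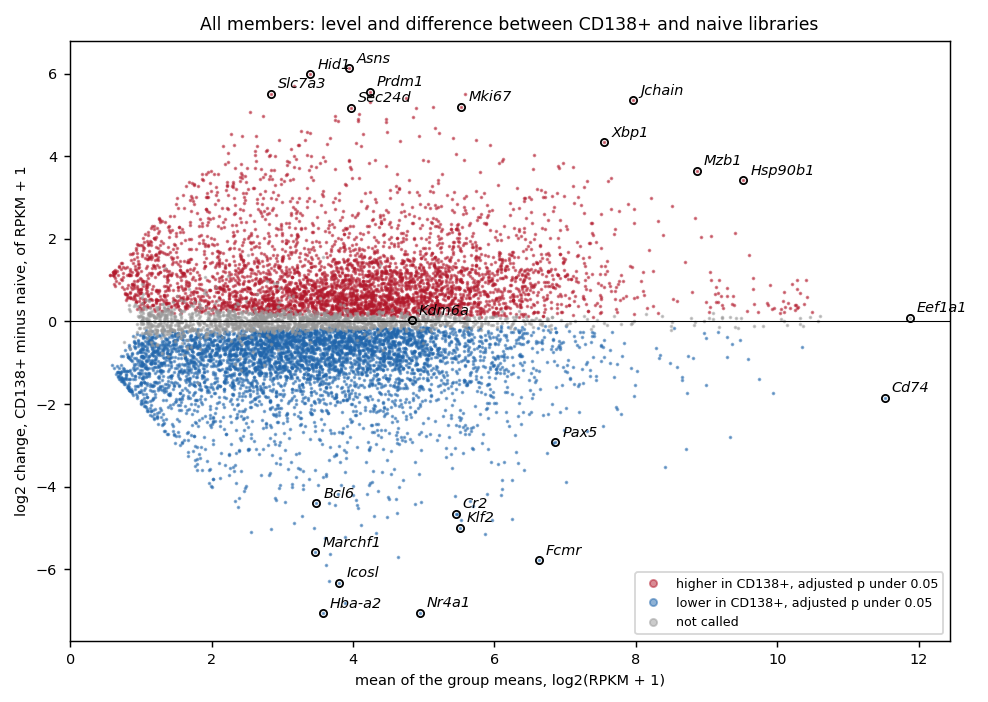
Mean of the CD138+ and naive group means (x axis, log2(RPKM + 1)) against the difference CD138+ minus naive (y axis, log2) for the 10601 members, 1 point a gene. Red points are members called higher in CD138+ libraries (4230), blue points those called lower (4701) and grey points those not called, and circles mark named genes.

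The labels were checked on 8 markers of plasmablasts and on markers of mature B cells. Sdc1 codes for CD138 itself, on which the cells were enriched, so its level checks the label and is no finding: it was at 30.5, 32.1 and 35.3 RPKM in the CD138+ libraries, 1.30, 1.54 and 1.26 RPKM in the GL7+ libraries and 4.72, 2.00 and 2.66 RPKM in the naive libraries. The other 7 plasmablast markers (Prdm1, Irf4, Xbp1, Jchain, Mzb1, Tnfrsf17 and Ell2) were also higher in every CD138+ library than in every naive one. The 7 mature B cell markers given here (Ms4a1, Cd79a, Cd79b, Pax5, Cr2, Fcer2a and Cd22) were lower in every CD138+ library than in every naive one, but were not absent. Cd79b, a signalling chain of the antigen receptor, was at 283, 314 and 295 RPKM in CD138+ libraries, against 804, 942 and 865 RPKM in naive libraries.

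Markers of other cell types were higher in the naive libraries. The summed level of the 14 myeloid markers was 7.25 to 10.2 RPKM in CD138+ libraries and 82.6 to 130 RPKM in naive libraries. The 12 T cell markers summed to 1.77 to 2.21 RPKM in CD138+ libraries and 26.1 to 34.4 RPKM in naive libraries. The 10 NK cell markers summed to 0.419 to 1.23 RPKM in CD138+ libraries and 6.996 to 11.2 RPKM in naive libraries. The 8 dendritic cell markers summed to 10.8 to 12.1 RPKM in CD138+ libraries and 30.4 to 37.2 RPKM in naive libraries. The 10 erythroid and platelet markers summed to 1.73 to 2.55 RPKM in CD138+ libraries and 74.6 to 87.3 RPKM in naive libraries. The 10 stromal and endothelial markers stayed between 0.313 and 0.558 RPKM in CD138+ libraries and between 1.604 and 2.949 RPKM in naive libraries, and none of them was a member.

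Among these lists 4 T cell, 1 NK cell, 9 myeloid, 6 dendritic cell and 3 erythroid or platelet genes were members. Of these, 4, 1, 6, 4 and 2 reached 1 RPKM in naive libraries only, so that they had to be lower in CD138+ libraries and no count of calls is given. Flt3, a cytokine receptor that B cell precursors also carry, rose by 0.58 on the log2 scale, and this call was lost with libraries thinned to equal depth (adjusted p = 0.18). In all 3 CD138+ libraries the T cell markers Cd3d and Cd3e, the myeloid markers Mpo, S100a8 and S100a9, and the dendritic markers Clec9a and Cd209a were listed at 0. Lyz2, the lysozyme of macrophages, was at 2.88, 1.69 and 1.12 RPKM in CD138+ libraries, against 67.0, 44.7 and 73.3 RPKM in naive libraries, and it is nearly identical to Lyz1, so that reads may be shared. Itgax, which codes for CD11c, was at 0.046 to 0.122 RPKM in CD138+ libraries, against 13.8 to 14.9 RPKM in naive libraries. Where these cell types also express a gene that fell in CD138+ libraries, their part in that fall was not tested.

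**Figure D2:**
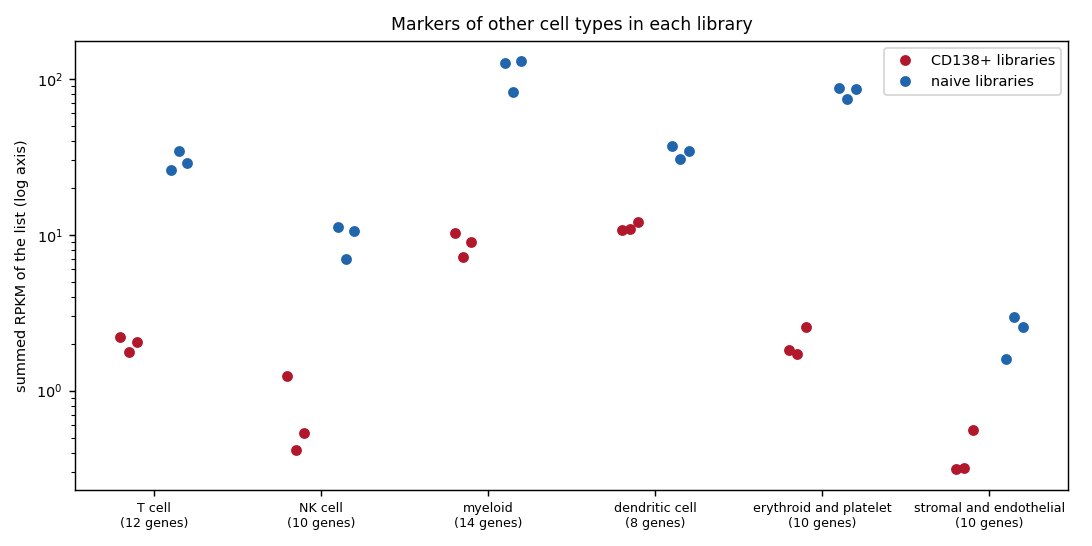
Summed RPKM of the markers of 6 other cell types (log axis) in each CD138+ library (red, left of each pair) and each naive library (blue), with the number of genes summed below each name. For all 6 lists every CD138+ library lies below every naive library, for example 7.25 to 10.2 RPKM against 82.6 to 130 RPKM for the myeloid markers.

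The regulators of plasma cell fate rose. Prdm1, which codes for the repressor Blimp-1, was at 131, 126 and 126 RPKM in CD138+ libraries, 39.5, 35.8 and 36.2 RPKM in GL7+ libraries and 1.29, 2.40 and 1.57 RPKM in naive libraries. The 3 groups did not overlap, and the log2 difference from naive was 5.56 ± 0.10 (SE; adjusted p = 1e-15) and from GL7+ 1.75 (adjusted p = 3.2e-09). Xbp1, the factor that enlarges the secretory machinery, was at 797, 826 and 893 RPKM in CD138+ libraries, 198, 210 and 192 RPKM in GL7+ libraries and 45.1, 33.7 and 43.3 RPKM in naive libraries. Its level stood in the same order, with a log2 difference of 4.34 ± 0.09 from naive (SE; adjusted p = 6.2e-15).

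Irf4, needed both for activation and at a higher level for plasma cells, kept another order. It was at 343, 336 and 372 RPKM in CD138+ libraries, 129, 128 and 125 RPKM in GL7+ libraries and 218, 195 and 221 RPKM in naive libraries, so that the naive libraries lay between the others. The log2 difference was 0.73 from naive (adjusted p = 8.5e-09) and 1.45 from GL7+ (adjusted p = 6.9e-11).

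Of the 25 regulators and markers of plasma cells, 23 rose, 20 of them at least 2-fold, and 2 fell, with a median log2 difference of 3.41 against −0.06 over all members. Among the 25 genes, 3 reached 1 RPKM in CD138+ libraries only and had to be higher there than in naive libraries. Against GL7+ libraries 22 of the 25 were higher and 2 lower, where 2333 of all members were higher (22.0%) and 3930 lower (37.1%), together 6263 (59.1%). The median log2 difference from GL7+ libraries over all members was −0.10. Jchain, which joins IgM and IgA into polymers, was at 1608, 1529 and 1636 RPKM in CD138+ libraries, 272, 284 and 244 RPKM in GL7+ libraries and 32.9, 39.3 and 41.8 RPKM in naive libraries. Mzb1, an endoplasmic reticulum protein that helps antibody assembly, was at 1615, 1646 and 1674 RPKM in CD138+ libraries, against 122, 131 and 138 RPKM in naive libraries. Jchain rose by 5.36 and Mzb1 by 3.65 on the log2 scale, and neither gene had groups that overlapped. Ell2, an elongation factor used to make the secreted form of antibody mRNA, rose by 3.58, and Tnfrsf17, the survival receptor BCMA, by 3.62 on the same scale. The 2 members that fell were Zbtb20, a transcription factor of plasma cells that was low throughout (0.96, 1.13 and 0.864 RPKM in CD138+ libraries, against 3.17, 2.40 and 1.84 RPKM in naive libraries), and Ly6d, whose log2 difference of −0.28 lost its call with TMM scaling (adjusted p = 0.19) and with median-of-ratios scaling.

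**Figure D3:**
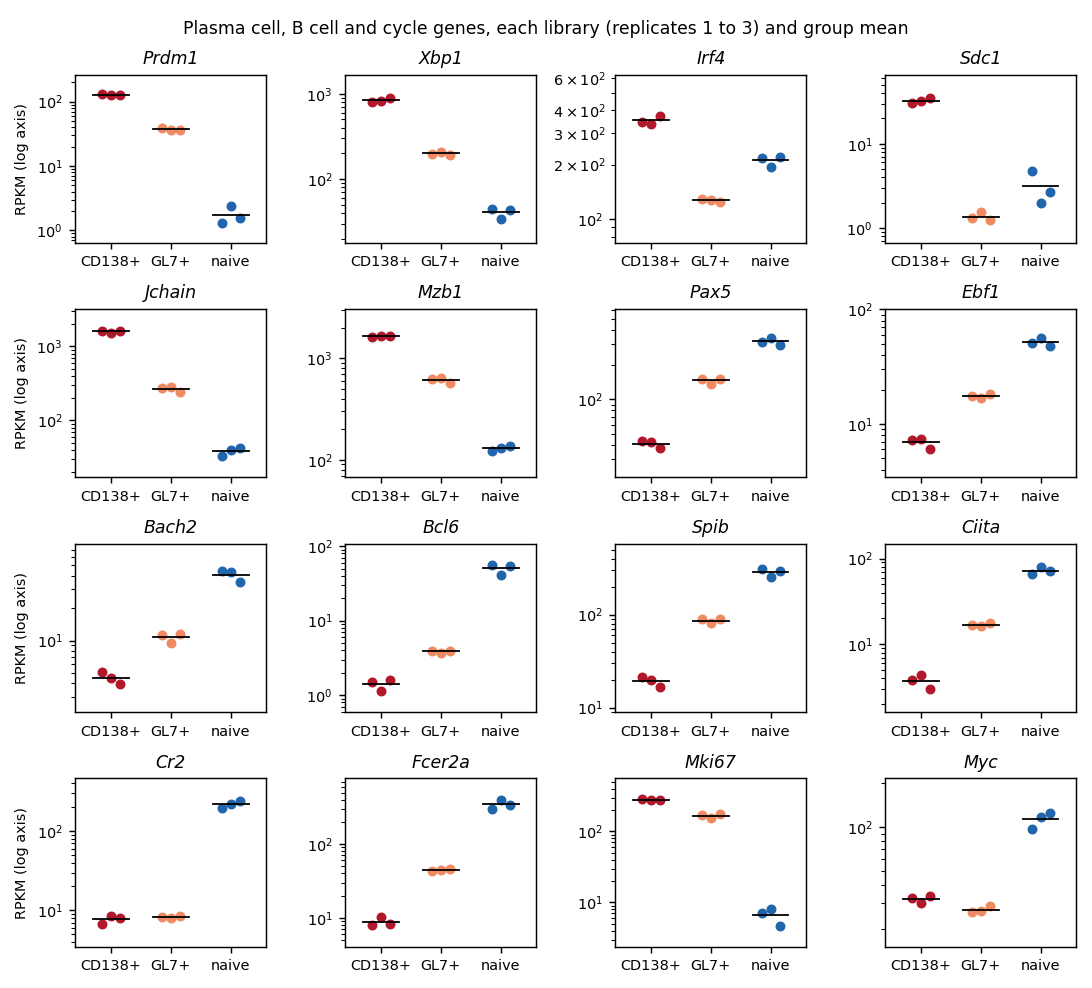
RPKM (log axis, 1 panel a gene with its own range) of 16 genes in the CD138+ (red), GL7+ (orange) and naive (blue) libraries, 1 point a library in the order of replicates 1 to 3, with a line at the group mean. Prdm1 and Xbp1 stand highest in the CD138+ libraries, and Pax5, Bach2 and Bcl6 in the naive libraries.

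The transcription factors of B cell identity fell. Pax5, the factor that commits cells to the B lineage, was at 43.6, 42.4 and 37.4 RPKM in CD138+ libraries, 150.6, 136.9 and 151.1 RPKM in GL7+ libraries and 317, 340 and 298 RPKM in naive libraries. The groups did not overlap, and the log2 difference from naive was −2.92 ± 0.10 (SE; adjusted p = 1e-12). Bcl6, a repressor that Blimp-1 opposes, was at 1.51, 1.15 and 1.58 RPKM in CD138+ libraries, against 55.2, 41.3 and 54.6 RPKM in naive libraries. Bach2, which delays plasma cell formation, fell by 2.93, Ebf1, which acts with Pax5, by 2.74, and Spib, an ETS factor of B cells, by 3.83 on the log2 scale. Klf2, which keeps lymphocytes quiescent and sets their homing, was at 7.11, 6.77 and 7.27 RPKM in CD138+ libraries, against 232, 241 and 298 RPKM in naive libraries.

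Of the 25 factors of B cell identity, 23 fell, 20 of them at least 2-fold, 1 rose and 1 was not called, with a median log2 difference of −1.54. Against GL7+ libraries 21 were lower and none was higher. The gene that rose was Tcf3, which codes for the E proteins E12 and E47, by 0.15 on the log2 scale. This call was lost in the 6 libraries paired by mouse (0.147, adjusted p = 0.076), and quantile normalization put it at −0.107 (adjusted p = 0.095).

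Surface receptors of mature B cells fell with them. Of 25, 23 fell, 21 of them at least 2-fold, and 2 rose, with a median of −2.48. Cr2, the complement receptor CD21, was at 6.64, 8.49 and 8.06 RPKM in CD138+ libraries, 8.20, 7.94 and 8.54 RPKM in GL7+ libraries and 195, 219 and 241 RPKM in naive libraries, so that the CD138+ and GL7+ libraries overlapped while both lay far below the naive ones. Fcer2a, the IgE receptor CD23 of follicular B cells, was instead graded, at 7.85, 10.4 and 8.24 RPKM in CD138+ libraries, 44.4 RPKM on average in GL7+ libraries and 302, 399 and 335 RPKM in naive libraries. Its log2 difference was −5.14 from naive and −2.22 from GL7+. The 2 receptors that rose were Cd24a, by 1.01, and Cd81, a tetraspanin, by 0.65 on the log2 scale.

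Of 24 genes of B cell receptor signalling, 18 fell, 4 rose and 2 were not called, with a median of −1.14. Blk, a kinase of the Src family, was at 19.2, 19.5 and 18.5 RPKM in CD138+ libraries, against 222, 207 and 228 RPKM in naive libraries. Ptpn6, the inhibitory phosphatase SHP-1, fell by 2.63 and Bank1, a scaffold protein, by 3.06 on the log2 scale. The adaptor Blnk rose by 0.56 and Rasgrp3, an activator of Ras, by 0.71, and neither had values that overlapped between the groups. Of the IgM receptor Fcmr the CD138+ libraries held 11.8, 12.4 and 12.5 RPKM, against 639, 842 and 717 RPKM in naive libraries.

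All 10 members of antigen presentation on MHC class II fell, with a median of −3.71, and all 10 were also lower than in GL7+ libraries. Ciita, the master activator of these genes, was at 3.81, 4.40 and 3.05 RPKM in CD138+ libraries, 16.6, 16.6 and 17.8 RPKM in GL7+ libraries and 65.4, 78.8 and 72.4 RPKM in naive libraries. The groups did not overlap, and the log2 difference was −3.95 ± 0.11 from naive (SE; adjusted p = 1e-13). H2-Oa, a chain of the modulator H2-O, fell by 5.13, and H2-DMb1, a chain of the peptide editor H2-M, by 4.05. Cd74, the invariant chain, was at 1462, 1594 and 1520 RPKM in CD138+ libraries, against 4118, 7271 and 5478 RPKM in naive libraries, where no gene had a higher mean. Genes of the H2 complex resemble each other, and reads may be shared among them. Myeloid and dendritic cells also express these genes, their markers were higher in naive libraries as given above, and their part in this fall was not tested.

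Genes of MHC class I presentation were called in both directions, as were all members, of which 39.9% were higher and 44.3% lower. Of 13 members 5 rose, 4 fell and 4 were not called, with a median of −0.03, and with quantile normalization 3 rose and 7 fell, with a median of −0.326. Tapbp, which codes for the peptide-loading protein tapasin, was at 173 RPKM in each of the CD138+ libraries, against 111, 111 and 116 RPKM in naive libraries. H2-D1, a class I heavy chain, was at 542, 512 and 510 RPKM in CD138+ libraries, against 615, 602 and 646 RPKM in naive libraries. Its log2 difference of −0.25 passed the test in these values, but not with TMM scaling (adjusted p = 0.12).

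Receptors of migration split. Of 17 members 11 fell, each of them at least 2-fold, 5 rose and 1 was not called, with a median of −2.12. S1pr1, the receptor for exit from lymphoid tissue, was at 5.12, 6.41 and 4.57 RPKM in CD138+ libraries, against 138, 122 and 142 RPKM in naive libraries. Cxcr4, the chemokine receptor that draws plasma cells to bone marrow, stood between, at 98.6, 103 and 102 RPKM in CD138+ libraries, 31.4, 29.0 and 27.4 RPKM in GL7+ libraries and 419, 476 and 435 RPKM in naive libraries. It was therefore lower than in naive cells by 2.12 but higher than in GL7+ cells by 1.75 on the log2 scale (adjusted p = 1.6e-11). Ccr10, a mucosal homing receptor of plasma cells, rose to 1.98, 2.34 and 3.27 RPKM in CD138+ libraries, against 0, 0.44 and 0 RPKM in naive libraries.

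Genes that sense the culture's own stimuli were called in both directions. Tlr4, the receptor of LPS, was at 4.35, 4.89 and 4.66 RPKM in CD138+ libraries, against 8.83, 7.10 and 8.34 RPKM in naive libraries. Among 21 genes of LPS and Toll-like receptor sensing, 3 reached 1 RPKM in naive libraries only and had to be lower in CD138+ libraries. Of the 21 genes 12 fell, 8 rose and 1 was not called, beside 39.9% higher and 44.3% lower of all members. The median of the list was −1.34. Without naive replicate 1, 2 or 3 that median was −0.627, −0.766 or −0.664, over 19 genes, since 2 naive libraries do not let a gene expressed in naive cells only pass the filter. Cd180, an LPS-related receptor of B cells, was at 19.9, 22.3 and 21.3 RPKM in CD138+ libraries, against 128, 164 and 146 RPKM in naive libraries. Tlr9, a sensor of bacterial DNA, fell by 4.17, whereas Tlr7, a sensor of RNA, rose by 0.75 on the log2 scale. Of 16 genes of the IL-2 and IL-5 receptors and STAT5, 8 rose, 5 fell and 3 were not called. Among these 16 genes, 2 reached 1 RPKM in CD138+ libraries only and had to be higher there. Il5ra, the specific chain of the IL-5 receptor, was not called, at 15.1, 15.3 and 14.8 RPKM in CD138+ libraries, against 15.8 to 16.9 RPKM in naive libraries (log2 difference −0.10, adjusted p = 0.2), and in GL7+ libraries it averaged 3.95 RPKM. Il2ra, the high-affinity chain of the IL-2 receptor, was at 48.8, 52.1 and 47.3 RPKM in CD138+ libraries, against 0.827, 1.89 and 0.867 RPKM in naive libraries. The feedback inhibitors Cish and Socs2, targets of STAT5, rose by 3.82 and 3.72. Both stood higher than in GL7+ libraries too, by 1.56 and 1.59. The kinases Jak1 and Jak2 and the shared receptor chain Il2rg fell, by 1.83, 1.17 and 1.20.

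Genes of acute activation were lower than in naive libraries. Of 22 immediate early genes, which cells switch on within minutes of a stimulus, 20 fell, 19 of them at least 2-fold, and 2 were not called, with a median of −2.24. Among the 22 genes, 3 reached 1 RPKM in naive libraries only and had to be lower in CD138+ libraries. Nr4a1, an early target of antigen receptor signalling, was at 1.75, 1.56 and 1.69 RPKM in CD138+ libraries, 4.1 RPKM on average in GL7+ libraries and 370, 327 and 366 RPKM in naive libraries. Its log2 difference of −7.05 (adjusted p = 3e-17) was among the 15 largest falls, as were those of Fosb (−5.71), a subunit of AP-1, and Egr3 (−5.21), a zinc finger factor. Junb, another subunit of AP-1, fell by 2.74. Against GL7+ libraries the list had 5 genes higher and 9 lower of 22, near the shares of all members (22.0% higher, 37.1% lower).

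Of 18 NF-kB subunits and feedback targets 14 fell, none rose and 4 were not called, with a median of −0.93. Rel, the subunit c-Rel, was at 13.5, 12.0 and 12.1 RPKM in CD138+ libraries, against 101, 100 and 92.8 RPKM in naive libraries. Nfkbid, a nuclear IkB protein, fell by 4.33 on the log2 scale. Of the 23 genes of activation and co-stimulation 9 were higher, 12 lower and 2 not called, beside 39.9% higher and 44.3% lower of all members. Among the 23 genes, 2 reached 1 RPKM in naive libraries only and had to be lower in CD138+ libraries. Icosl, the ligand of ICOS on T cells, was at 0.407, 0.571 and 0.694 RPKM in CD138+ libraries, against 110, 131 and 130 RPKM in naive libraries. Il10, the gene of an anti-inflammatory cytokine, was at 43.0, 37.4 and 39.1 RPKM in CD138+ libraries, 11.8, 10.04 and 10.4 RPKM in GL7+ libraries and 1.16, 0.581 and 1.74 RPKM in naive libraries, and the adhesion receptor Cd44 rose by 1.81.

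Of 21 interferon response genes 13 fell, 6 rose and 2 were not called. Among the 21 genes, 3 reached 1 RPKM in naive libraries only and had to be lower in CD138+ libraries, Ifit3 among them. Isg20, an exonuclease, was at 66.7, 65.8 and 71.3 RPKM in CD138+ libraries, against 6.42, 7.75 and 5.59 RPKM in naive libraries, and Bst2, which tethers virus particles, rose by 2.22. Ifit3, a classical target of type I interferon, was at 0.046 to 0.104 RPKM in CD138+ libraries, against 6.08 to 6.73 RPKM in naive libraries.

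Of the 16 genes of class switching, in which B cells change the constant region of their antibody, and its repair 11 rose, 3 fell and 2 were not called, and against GL7+ libraries 1 was higher and 10 lower. Exo1, an exonuclease of mismatch repair, was at 9.57, 9.32 and 9.18 RPKM in CD138+ libraries, against 0.785, 0.965 and 0.559 RPKM in naive libraries, a rise of 2.56 on the log2 scale. Ung, a glycosylase that removes uracil from DNA, rose by 1.28, while Trp53bp1, which directs break ends to joining, fell by 0.91.

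Genes of the machinery that carries proteins into the endoplasmic reticulum and folds them rose almost throughout. Of 24 genes of translocation, 23 rose, 22 of them at least 2-fold, and 1 was not called, with a median of 2.33. Ssr2, a subunit of the translocon-associated complex, was at 484, 509 and 525 RPKM in CD138+ libraries, 167, 179 and 160 RPKM in GL7+ libraries and 34.5, 37.8 and 38.6 RPKM in naive libraries. Sec61a1, the channel itself, rose by 2.96, and Sec11c, the catalytic subunit of signal peptidase, by 2.99. Against GL7+ libraries 22 of the 24 were higher, with a median of 0.90.

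Of 31 members of folding and ER-associated degradation, 30 rose, 29 of them at least 2-fold, and 1 fell, with a median of 2.6. Hsp90b1, the endoplasmic chaperone GRP94, was at 2375, 2331 and 2504 RPKM in CD138+ libraries, 844, 860 and 823 RPKM in GL7+ libraries and 229, 194 and 248 RPKM in naive libraries. It was among the 10 most abundant genes of the CD138+ libraries, and its groups did not overlap. The list as a whole held 3.14%, 3.13% and 3.28% of the summed RPKM of the CD138+ libraries, 1.39%, 1.37% and 1.34% of the GL7+ libraries and 0.633%, 0.563% and 0.649% of the naive libraries. Creld2, a chaperone induced by stress of the endoplasmic reticulum, rose by 4.04 and Manf by 3.70 on the log2 scale. Derl3, a component of ER-associated degradation that was counted with the plasma cell regulators and markers, rose by 5.16. Of the 31 members of the folding list Dnajb9 alone fell, by 0.32. That call was lost with TMM scaling (adjusted p = 0.15) and when paired by mouse (adjusted p = 0.065), among other alternatives, and against GL7+ libraries the gene was higher by 0.85.

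Promoters of this list are shown because XBP1 and ATF6 are known to bind the ER stress response element, written CCAAT, 9 bases of any kind, then CCACG. The letters were searched on both strands of the 250 bases before and 50 bases after each start in RefSeq (GRCm38.p6), where 8456 of the members had an entry. The element was found in 37 of 27025 genes (0.137%), in 17 of the 8456 members (0.201%) and in 9 of the 27 genes of the folding list with an entry (33.3%), which were Calr, Canx, Creld2, Dnajc3, Ero1lb, Hsp90b1, Hspa5, Pdia6 and Syvn1. A match is a description of the letters and not a binding site. Below, capitals mark the 2 ends of the element, CCAAT and CCACG or their reverse complements, in Creld2 (chr15:88819396-88819695, plus strand), Pdia6 (chr12:17266339-17266638, plus strand) and Hsp90b1 (chr10:86705395-86705694, minus strand, 2 matches). The sequences are those of the gene's strand from 5′ to 3′.
Creld2: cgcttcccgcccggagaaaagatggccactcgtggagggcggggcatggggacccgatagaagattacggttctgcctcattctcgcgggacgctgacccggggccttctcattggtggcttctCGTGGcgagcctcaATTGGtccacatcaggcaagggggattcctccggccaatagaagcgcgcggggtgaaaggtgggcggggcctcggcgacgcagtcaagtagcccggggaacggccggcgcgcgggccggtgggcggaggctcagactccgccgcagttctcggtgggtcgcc
Pdia6: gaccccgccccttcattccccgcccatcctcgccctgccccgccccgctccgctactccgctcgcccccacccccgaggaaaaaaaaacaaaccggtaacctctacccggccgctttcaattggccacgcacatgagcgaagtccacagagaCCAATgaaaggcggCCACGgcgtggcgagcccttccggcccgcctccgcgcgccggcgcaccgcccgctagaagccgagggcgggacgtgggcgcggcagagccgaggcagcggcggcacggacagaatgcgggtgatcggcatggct
Hsp90b1: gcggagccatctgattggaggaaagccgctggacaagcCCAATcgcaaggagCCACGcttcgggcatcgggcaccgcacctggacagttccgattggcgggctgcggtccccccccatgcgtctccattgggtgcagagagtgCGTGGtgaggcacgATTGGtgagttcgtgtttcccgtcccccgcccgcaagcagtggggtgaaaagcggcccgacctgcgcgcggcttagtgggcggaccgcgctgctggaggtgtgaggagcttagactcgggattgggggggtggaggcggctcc
All 3 genes rose, Pdia6, a disulfide isomerase, to 500.3, 511 and 523 RPKM in CD138+ libraries, against 48.8, 41.6 and 52.7 RPKM in naive libraries.

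Genes of N-glycosylation and of vesicle transport rose too. Of 28 genes of N-glycosylation, which attaches sugar chains to new proteins, 26 rose, 1 fell and 1 was not called, with a median of 1.78. Rpn1, a subunit of oligosaccharyltransferase, was at 416, 450 and 447 RPKM in CD138+ libraries, against 31.1, 29.0 and 33.8 RPKM in naive libraries. Tusc3, another subunit, fell by 0.26, a call that was lost with TMM scaling (adjusted p = 0.16). Of 28 genes of vesicle coats and cargo receptors 26 rose and 2 fell, with a median of 1.62. Sec24d, a cargo adaptor of COPII coats, was at 89.6, 95.2 and 93.6 RPKM in CD138+ libraries, 25.2 RPKM on average in GL7+ libraries and 1.59, 1.65 and 1.56 RPKM in naive libraries. Lman1, the receptor for glycoproteins on the way to the Golgi, rose by 3.92. Sec24b, a paralogue of Sec24d, fell by 0.72 and Copg2, a paralogue of the COPI subunit Copg1, by 1.12.

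Of 15 sensors and factors of the unfolded protein response 12 rose and 3 fell, with a median of 0.97. Among the 15 genes, 2 reached 1 RPKM in CD138+ libraries only and had to be higher there. Creb3l2, an ER-bound transcription factor, was at 45.1, 44.9 and 47.3 RPKM in CD138+ libraries, 9.72, 8.90 and 9.10 RPKM in GL7+ libraries and 2.16, 2.10 and 2.26 RPKM in naive libraries. Atf6, the sensor released by cleavage in the Golgi, rose by 1.92. The stress factor Ddit3 (CHOP) was at 18.75, 20.03 and 19.03 RPKM in CD138+ libraries, against 37.4, 30.5 and 42.8 RPKM in naive libraries, and Ppp1r15a (GADD34), which restores translation after stress, fell by 1.90. Chac1, a target of the same branch, rose instead, to 24.0, 22.6 and 26.8 RPKM in CD138+ libraries, against 0.193, 0 and 0.207 RPKM in naive libraries. The third that fell, Mbtps2, had a log2 difference of −0.17 that was not called under 11 of the 17 alternatives, among them quantile normalization, which put it at 0.016.

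**Figure D4:**
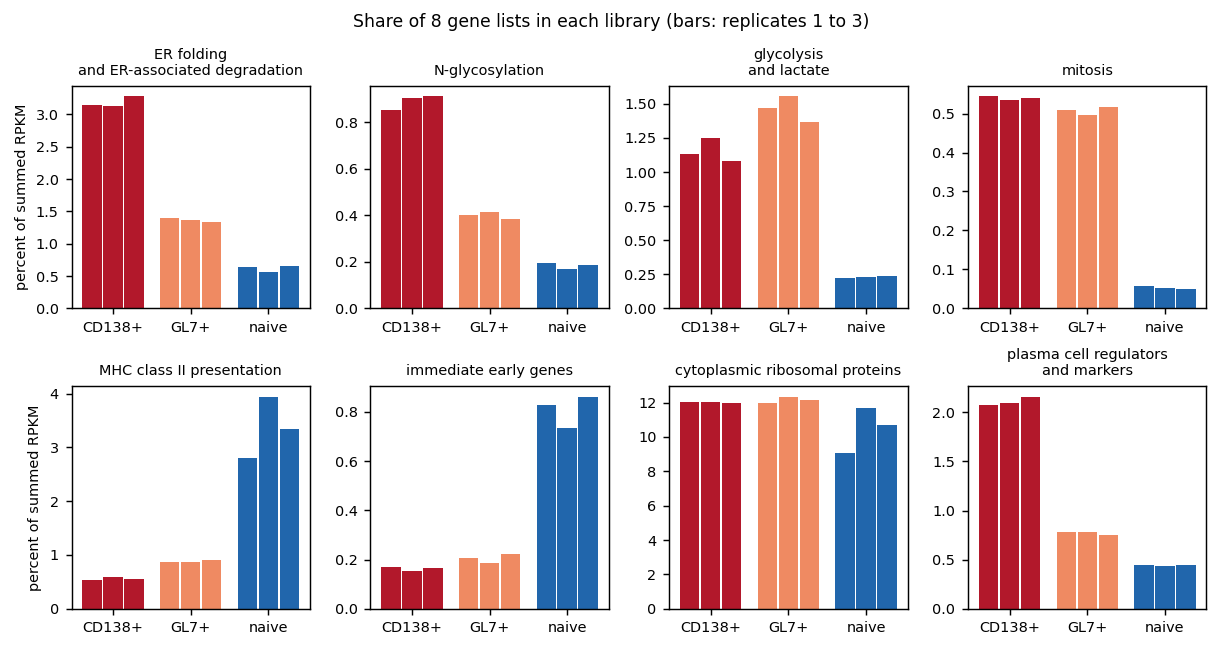
Share of the summed RPKM of each library (percent, axes from 0) held by 8 gene lists, 1 bar a library, with the CD138+ (red), GL7+ (orange) and naive (blue) libraries from left to right. The folding list holds 3.13% to 3.28% in CD138+ libraries, 1.34% to 1.39% in GL7+ libraries and 0.563% to 0.649% in naive libraries.

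Genes of the cell cycle rose. All 32 members of S phase and DNA replication rose, 29 of them at least 2-fold, with a median of 2.36, and all 30 of mitosis rose at least 2-fold, with a median of 3.80. Among them 3 genes of S phase and 2 of mitosis reached 1 RPKM in CD138+ libraries only and had to be higher there. The replication gene Cdt1 passed the test only narrowly (log2 difference 0.17, adjusted p = 0.045). Mki67, the proliferation antigen Ki-67, was at 284, 274 and 274 RPKM in CD138+ libraries, 173, 154 and 175 RPKM in GL7+ libraries and 7.18, 8.21 and 4.68 RPKM in naive libraries. Rrm2, the regulated subunit of ribonucleotide reductase, was at 214, 203 and 216 RPKM in CD138+ libraries, against 5.22, 4.52 and 4.53 RPKM in naive libraries. Ccna2, which codes for cyclin A2, rose by 4.91, and Top2a, the topoisomerase of dividing cells, by 4.57. Against GL7+ libraries the medians were −0.11 for S phase (5 higher, 13 lower) and 0 for mitosis (4 higher, 4 lower). Over all members that median was −0.10, with 22.0% higher and 37.1% lower, so that S phase stood near the members as a whole.

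Promoters of replication genes are shown for the letters of the E2F motif, TTTGGCGC or GCGGGAAA on either strand, in the same window. It was found in 486 of 27025 genes (1.80%), in 319 members (3.77%) and in 8 of the 26 S phase genes with an entry (30.8%), namely Cdc6, Cdt1, Mcm3, Mcm5, Mcm6, Mcm7, Pola1 and Rfc3. Capitals mark the motif in Mcm6 (chr1:128359656-128359955, minus strand) and Mcm3 (chr1:20820263-20820562, minus strand), which code for subunits of the replicative helicase and hold 2 matches each.
Mcm6: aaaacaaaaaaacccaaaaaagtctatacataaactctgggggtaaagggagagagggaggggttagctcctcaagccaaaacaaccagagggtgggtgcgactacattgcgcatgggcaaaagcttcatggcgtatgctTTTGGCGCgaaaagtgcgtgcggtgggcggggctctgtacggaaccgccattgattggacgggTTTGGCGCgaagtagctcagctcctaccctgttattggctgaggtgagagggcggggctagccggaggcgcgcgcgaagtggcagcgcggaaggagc
Mcm3: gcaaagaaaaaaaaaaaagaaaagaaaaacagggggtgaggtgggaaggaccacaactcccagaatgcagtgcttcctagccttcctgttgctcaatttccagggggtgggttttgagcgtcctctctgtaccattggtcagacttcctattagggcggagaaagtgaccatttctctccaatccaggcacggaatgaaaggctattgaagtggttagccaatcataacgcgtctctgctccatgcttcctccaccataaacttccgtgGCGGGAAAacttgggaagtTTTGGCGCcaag
Mcm6 was at 114, 120 and 118 RPKM in CD138+ libraries, against 15.91, 14.98 and 15.75 RPKM in naive libraries, a log2 difference of 2.84. Mcm3 rose by 2.47.

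Of 13 E2F factors and pocket proteins 10 rose, 2 fell and 1 was not called. E2f8, a repressive member, rose by 3.67, and Tfdp1, the partner of E2F factors, by 2.78, while Rbl2, the pocket protein p130 of resting cells, fell by 0.79. Of 6 cyclin-dependent kinase inhibitors 4 rose, 1 fell and 1 was not called. Among the 6 genes, 2 reached 1 RPKM in CD138+ libraries only and had to be higher there. Cdkn2a, which codes for p16 and p19Arf, was at 17.8, 19.4 and 17.9 RPKM in CD138+ libraries, 24.0, 23.3 and 21.9 RPKM in GL7+ libraries and 0.067, 0 and 0 RPKM in naive libraries. Cdkn1b, p27 of resting lymphocytes, fell by 0.74. Of 18 genes of quiescence 16 fell and 2 were not called, with a median of −1.17. Btg2, Klf2, Foxo1, Rbl2 and Cdkn1b of this list are counted in other lists too. Btg1, which restrains proliferation, was at 11.2, 10.8 and 10.2 RPKM in CD138+ libraries, 39.7, 38.5 and 42.8 RPKM in GL7+ libraries and 299, 340 and 352 RPKM in naive libraries.

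Myc itself and the genes of ribosome production went in different directions. Myc was at 32.6, 30.2 and 33.8 RPKM in CD138+ libraries, 27.01 RPKM on average in GL7+ libraries and 96.3, 117 and 124 RPKM in naive libraries, a log2 difference of −1.77 from naive (adjusted p = 6.7e-11). Of the 22 genes of the list of Myc and ribosome biogenesis the other 21 rose, 7 of them at least 2-fold, with a median of 0.84 over the list. Srm, which makes the polyamine spermidine, was at 154, 158 and 161 RPKM in CD138+ libraries, against 16.73, 15.997 and 17.93 RPKM in naive libraries, and Nop58, a nucleolar protein, rose by 1.26. Against GL7+ libraries 3 genes of the list were higher and 17 lower.

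Of 46 cytoplasmic ribosomal protein genes 36 rose, 2 of them at least 2-fold, and 10 were not called, with a median of 0.35. Quantile normalization put that median at 0.036, with 16 genes higher and 10 lower. These genes have many processed pseudogenes, and their reads may be shared. The list held 12.0%, 12.1% and 12.0% of the summed RPKM in CD138+ libraries, against 9.04%, 11.7% and 10.7% in naive libraries. Rpl12, of the large subunit, was not called (0.01, adjusted p = 0.92), and it passed the test as lower without naive replicate 1 (−0.122) and with quantile normalization (−0.161). Of 24 factors of translation initiation and elongation 21 rose, 1 fell and 2 were not called. Eif4ebp1, an inhibitor of cap-dependent initiation, rose by 2.85, and Eif4a2, a helicase, fell by 1.11. All 20 cytosolic tRNA synthetases rose, 18 of them at least 2-fold, with a median of 1.73.

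Most genes of amino acid synthesis and transport rose with them. Asns, asparagine synthetase, had the largest rise of the members that met the naming rule, 6.14 on the log2 scale (adjusted p = 2.5e-14). It was at 119, 130 and 129 RPKM in CD138+ libraries, 121 RPKM on average in GL7+ libraries and 0.512, 1.57 and 0.504 RPKM in naive libraries, so that CD138+ and GL7+ libraries stood close together, with a log2 difference of 0.06 (adjusted p = 0.76). Of 16 genes of ATF4 and serine and amino acid synthesis 14 rose, each at least 2-fold, 1 fell and 1 was not called, with a median of 2.83. Among the 16 genes, 2 reached 1 RPKM in CD138+ libraries only and had to be higher there. Psat1 and Phgdh, enzymes of serine synthesis, rose by 4.45 and 3.18, and Mthfd2, of mitochondrial one-carbon metabolism, by 3.15. Glul, glutamine synthetase, fell by 1.69. Of 13 amino acid transporters 9 rose, 2 fell and 2 were not called. Slc7a5, the carrier of large neutral amino acids, was at 232, 256 and 246 RPKM in CD138+ libraries, against 10.5, 10.2 and 11.2 RPKM in naive libraries, and its partner Slc3a2 rose by 2.04.

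Most genes of energy metabolism rose. Of 20 genes of glycolysis and lactate 19 rose and 1 fell, with a median of 2.15. Tpi1, triosephosphate isomerase, was at 456, 529 and 438 RPKM in CD138+ libraries, 575, 644 and 522 RPKM in GL7+ libraries and 29.2, 31.8 and 35.1 RPKM in naive libraries. Slc16a3, a lactate exporter, rose to 35.1, 42.0 and 30.6 RPKM in CD138+ libraries, against 0.412, 0 and 0.126 RPKM in naive libraries, and the glucose carrier Slc2a3 fell by 1.08. Against GL7+ libraries 1 gene of glycolysis was higher and 15 were lower, with a median of −0.36. All 37 genes of the respiratory chain and ATP synthase rose, 28 at least 2-fold, with a median of 1.16. Atp5b, a catalytic subunit of ATP synthase, was at 665, 690 and 681 RPKM in CD138+ libraries, against 240, 250 and 263 RPKM in naive libraries. Of 22 genes of the tricarboxylic acid cycle 17 rose, 1 fell and 4 were not called, and of 7 genes of the pentose phosphate pathway 6 rose and 1 was not called. Fh1, fumarase, was the gene that fell, by 0.22, and its call was lost with TMM scaling (adjusted p = 0.28).

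Of 28 genes of cholesterol and fatty acid synthesis 27 rose and 1 fell, with a median of 1.91. Sqle, squalene epoxidase, was at 85.1, 89.9 and 86.3 RPKM in CD138+ libraries, against 8.77, 9.39 and 10.3 RPKM in naive libraries, and Fdps, farnesyl diphosphate synthase, rose by 3.95. The 2 stearoyl-CoA desaturases differed in direction. Scd2 rose to 355, 372 and 357 RPKM in CD138+ libraries, against 40.2, 46.4 and 43.0 RPKM in naive libraries, while Scd1 fell to 246, 259 and 242 RPKM in CD138+ libraries, against 364, 412 and 384 RPKM in naive libraries. Of 22 genes of purine and pyrimidine synthesis 18 rose, 3 fell and 1 was not called. Cad, which starts pyrimidine synthesis, rose by 2.38.

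All 31 proteasome genes rose, 28 of them at least 2-fold, with a median of 1.28. Psmd14, the subunit that removes ubiquitin from substrates, was at 171, 159 and 159 RPKM in CD138+ libraries, against 39.9, 35.4 and 36.5 RPKM in naive libraries. Lysosomal genes split, with 8 higher and 14 lower of 22. Ctsd, cathepsin D, was at 121, 137 and 136 RPKM in CD138+ libraries, 44.3, 47.5 and 44.6 RPKM in GL7+ libraries and 43.6, 42.4 and 46.1 RPKM in naive libraries. Of 24 autophagy genes 9 rose, 9 fell and 6 were not called. Wipi1, a lipid-binding protein of early autophagosomes, was at 13.1, 13.3 and 12.8 RPKM in CD138+ libraries, 2.22, 2.13 and 1.35 RPKM in GL7+ libraries and 0.431, 0 and 0.153 RPKM in naive libraries.

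Of 13 members of the BCL2 family 7 rose, 4 fell and 2 were not called. Bcl2l1, which codes for the survival protein Bcl-xL, was at 42.7, 46.6 and 44.8 RPKM in CD138+ libraries, 17.1, 19.3 and 15.6 RPKM in GL7+ libraries and 1.228, 0.878 and 1.499 RPKM in naive libraries. Its groups did not overlap, and the log2 difference from naive was 4.38 (adjusted p = 2.5e-14). Bcl2, a survival protein of resting lymphocytes, was instead at 7.76, 6.78 and 6.29 RPKM in CD138+ libraries, 19.86, 19.74 and 19.98 RPKM in GL7+ libraries and 23.8, 22.0 and 21.8 RPKM in naive libraries. Of the pro-apoptotic members Bbc3 (PUMA) rose by 2.06 and Pmaip1 (NOXA) fell by 2.19.

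Among writers and erasers of histone H3 lysine 27 methylation, the mark that the drug of this series acts on, some rose and some fell. Ezh2, the methyltransferase of dividing cells, was at 94.1, 91.9 and 90.4 RPKM in CD138+ libraries, 114, 110 and 109 RPKM in GL7+ libraries and 12.7, 13.3 and 12.9 RPKM in naive libraries, a log2 difference of 2.74 from naive (adjusted p = 1.5e-16). Its paralogue Ezh1, of resting cells, was at 4.55, 4.54 and 4.67 RPKM in CD138+ libraries, against 20.2, 21.3 and 18.9 RPKM in naive libraries. The demethylase Kdm6a was not called, at 29.2, 27.6 and 26.3 RPKM in CD138+ libraries, against 29.9, 25.8 and 25.7 RPKM in naive libraries (log2 difference 0.03, adjusted p = 0.74). Kdm6b, the inducible demethylase of this mark, was at 4.34, 4.26 and 3.75 RPKM in CD138+ libraries, 7.85, 5.73 and 9.05 RPKM in GL7+ libraries and 29.1, 31.4 and 31.2 RPKM in naive libraries. Its groups did not overlap.

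Of 28 members of the Polycomb complexes and these demethylases 9 rose, 13 fell and 6 were not called, with a median of −0.09. Of all members 39.9% were higher and 44.3% lower, so that the list stood near the members as a whole. Phf1, an accessory subunit that brings PRC2 to chromatin, fell by 2.96, and Rbbp7, a histone-binding subunit of PRC2, rose by 1.18. Of the 17 other JmjC demethylases 13 fell, 3 rose and 1 was not called. Kdm7a was at 9.57, 8.72 and 8.82 RPKM in CD138+ libraries, against 49.5, 43.3 and 40.7 RPKM in naive libraries. Of 6 genes of DNA methylation 2 rose, 3 fell and 1 was not called. Dnmt1, which copies methylation after replication, rose by 1.18 and its partner Uhrf1 by 3.28, while the oxidase Tet3 fell by 2.35 and the de novo enzyme Dnmt3a by 1.10.

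**Figure D5:**
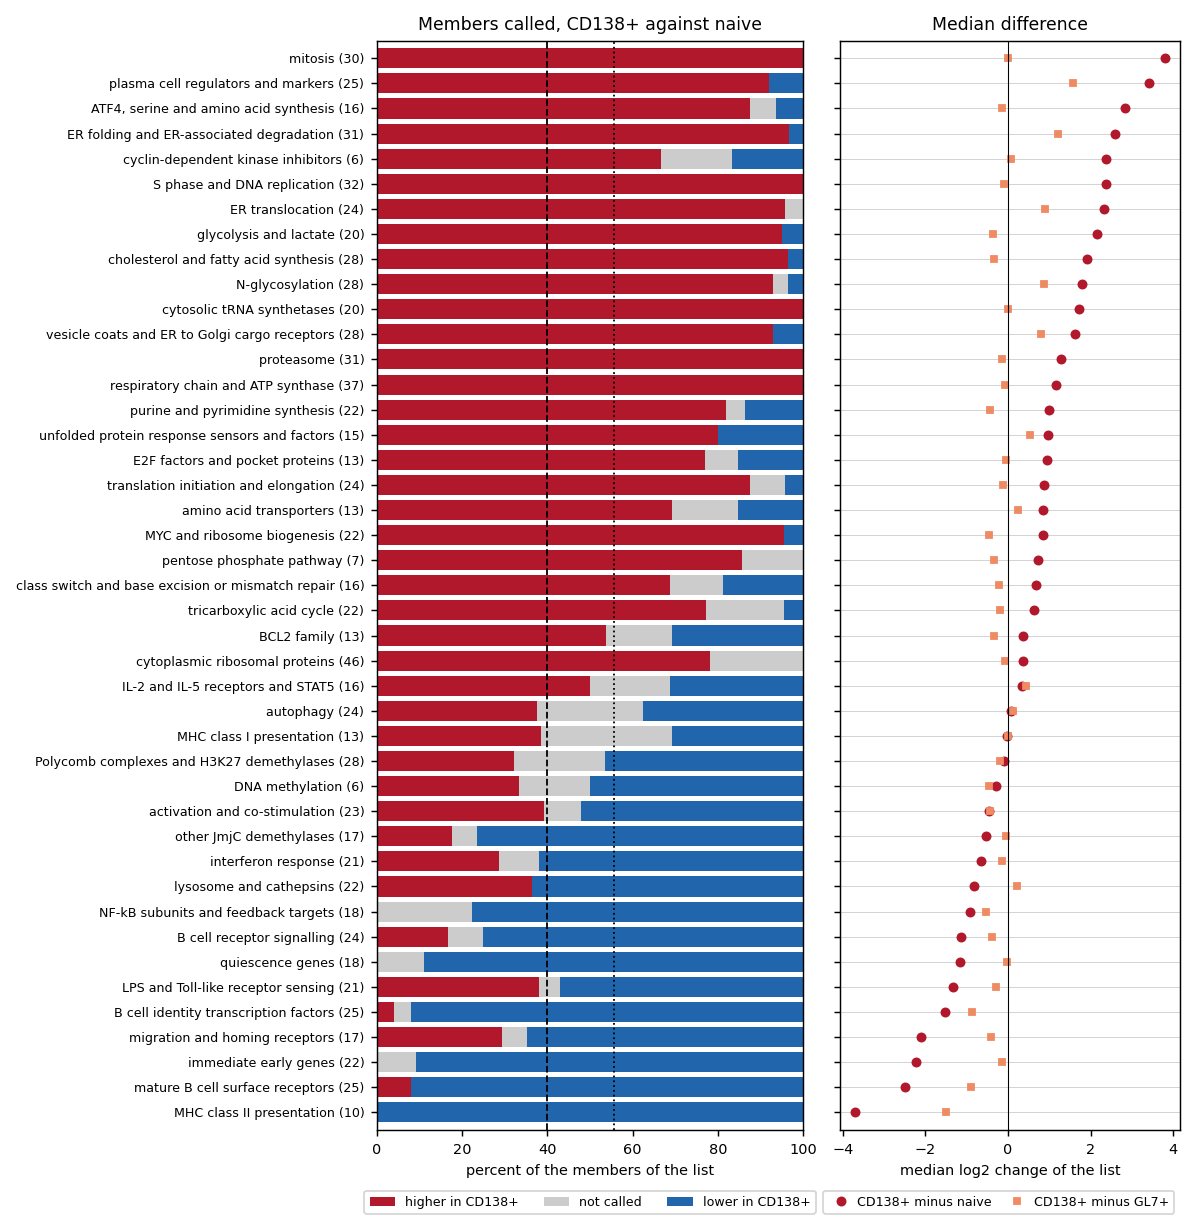
Left, percent of the members of each gene list called higher (red), not called (grey) or called lower (blue) in CD138+ against naive libraries, with the number of members in brackets; the dashed line marks the 39.9% of all members that were higher, and blue bars that start at the dotted line would match the 44.3% that were lower. Right, median log2 difference of each list, CD138+ minus naive (red circles) and CD138+ minus GL7+ (orange squares): mitosis stands at 3.80 and 0, the folding list at 2.6 and 1.21.

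Some of the 15 largest rises were of genes outside the lists. Fam46c, a poly(A) polymerase that acts on mRNAs of secreted proteins, was at 299, 329 and 334 RPKM in CD138+ libraries, 62.0 RPKM on average in GL7+ libraries and 6.61, 4.86 and 6.86 RPKM in naive libraries. Hid1, a protein of Golgi and secretory granule traffic, rose by 5.99, Tmed6, of the TMED family of cargo proteins, by 5.71, and Ube2c, a ubiquitin-conjugating enzyme of mitosis, by 5.42. H1f0, a linker histone, was at 106, 118 and 128 RPKM in CD138+ libraries, against 1.49, 2.32 and 2.19 RPKM in naive libraries. Among the falls, Plaur, the urokinase receptor, fell by 6.28, Marchf1, a ubiquitin ligase that removes MHC class II from the surface, by 5.59, and Rasgef1b by 5.64. Hba-a2, an alpha globin gene with a near-identical copy, was listed at 0, 0 and 0.08 RPKM in CD138+ libraries, against 129, 135 and 145 RPKM in naive libraries. It is a product of red cells, whose other markers were higher in naive libraries as given above.

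At the extremes, 44 members were at 1 RPKM or more in every CD138+ library and under 0.1 RPKM in every naive library, and 96 showed the reverse. The genes named from these were chosen after their values were seen. Slc7a3, a carrier of basic amino acids, was at 43.2, 51.2 and 47.9 RPKM in CD138+ libraries, against 0.096, 0 and 0.068 RPKM in naive libraries. Cox4i2, an isoform of a subunit of cytochrome oxidase, was at 8.64, 10.3 and 9.60 RPKM in CD138+ libraries, against 0.087, 0 and 0 RPKM in naive libraries. C4bp, of the complement binding protein C4BP, was at 7.96, 9.04 and 9.28 RPKM in CD138+ libraries and listed at 0 in the naive ones. On the other side stood genes known from macrophages, such as C1qa, C1qc and Vcam1, at 9.43 to 18.1 RPKM in naive libraries and listed at 0 in every CD138+ library, together with Spic, a factor of red pulp macrophages, and Csf1r, the receptor of the macrophage growth factor. Csf1r is itself among the 14 myeloid markers summed above. The genes of this paragraph were picked by these values and add no evidence to those sums.

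CD138+ and GL7+ libraries came from the same kind of culture and differed directly for the genes that mark the enriched cells. Beside Sdc1, the members with the largest log2 differences upward that were also called against naive were Ly6c2 (4.55), Tnfrsf17 (3.26), Cacna1h (3.02) and Evi5 (3.02). Ly6c2, which codes for a Ly6C surface protein and has a near-identical copy in Ly6c1, was at 83.9, 79.2 and 83.3 RPKM in CD138+ libraries, 2.38, 2.84 and 2.42 RPKM in GL7+ libraries and 9.09, 4.74 and 4.85 RPKM in naive libraries. Among the largest downward were Fcer2a (−2.22), Spib (−2.12) and B3gnt5 (−2.11), a glycosyltransferase. Of the called genes in this comparison 37.3% were higher, and 49.8% with median-of-ratios scaling. The comparison with GL7+ libraries and that with naive libraries share the CD138+ libraries, so that their values stand side by side here and were not correlated.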

How the data were processed

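RNA was poly(A) selected and made into libraries with the KAPA mRNA HyperPrep kit, per the labels' protocols. Reads were aligned with TopHat2 to the mm9 build, per the submitters' processing notes. The counting tool, strand setting and gene annotation were not given in the sources used here, so overlapping and antisense genes may hold each other's reads. The authors deposited 1 table of RPKM values per gene and library, per the file headers, with gene lengths and Entrez IDs. Low RPKM values gave whole reads in 100% of cases (tolerance 0.1 read, up to 20 reads), and the rebuilt reads gave the depth of each library. In naive replicate 2, the shallowest, 1883 genes then held 1 read and 54.4% of detected genes an odd number. Each depth is the smallest that makes low values whole reads. A depth 2 times as large, with an even number in every gene, would make them whole too and was not excluded.

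Of the 21761 genes, 27 symbols stored as dates were restored and 21615 Entrez IDs matched the RefSeq table. limma 3.58.1 (R 4.3.3) was fitted to log2(RPKM + 1), as the values are not counts, over all 15 libraries, with 1 mean for each group and a prior variance that follows the level, for the 10866 genes at 1 RPKM or more in at least 3 of the 15. P-values were adjusted by Benjamini-Hochberg over these genes, with a threshold of 0.05. Differences on this scale understate the change of low genes. Nothing says more of the replicates than the mouse number, and p-values measure the spread between libraries.

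The 49 gene lists and the members were chosen with earlier results of these data known. Some genes stand in several lists, with 992 distinct genes among the 1003 matched entries, so the counts of different lists are not all separate. Named genes were the 15 largest called differences per direction without overlap between the groups (mean of at least 5 RPKM, length of at least 200 bases), the 10 most abundant genes per group, 16 regulators, up to 4 genes by p and 2 by size of each list, up to 3 against its direction, and the 5 largest per direction against GL7+. Not all of them are printed. The mature B cell and plasmablast markers were fixed as well. Genes named outside these rules are the carriers of a promoter motif, and those said to be chosen after their values were seen. Some items are not reported here.

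The labels give a mouse number to each library, the same numbers in each group, which was taken as a pairing by animal. The values themselves show little of it. Deviations of CD138+ and naive libraries from their group means correlated by 0.112, 0.0546 and 0.00057 for mice 1, 2 and 3, and by −0.0869 to 0.0175 between mice. The 17 alternatives changed the pseudocount, filter, scaling, libraries in the fit, pairing, variance model, depth, weights or left out a library. The fit was tested on simulated data.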

Additional observations from a re-analysis of the deposited data

Results flagged for a closer look

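In 4 genes the CD138+ libraries lay above every naive library while the GL7+ libraries lay below every naive library, so that the cultured groups stood on opposite sides of naive cells. They were picked among the named genes by this pattern and by a call of at least 2-fold between CD138+ and GL7+ libraries, so that the differences given are a description with no further test. On the log2(RPKM + 1) scale, CD138+ minus GL7+ was 3.02 for Evi5, a regulator of Rab GTPases, which was at 28.2, 28.8 and 31.1 RPKM in CD138+ libraries, 2.80, 2.57 and 2.88 RPKM in GL7+ libraries and 4.24, 3.66 and 3.69 RPKM in naive libraries. It was 1.45 for Irf4 and 4.55 for Ly6c2, whose values are given above. It was 3.83 for Sdc1, which codes for the protein on which the CD138+ cells were enriched. Its level in CD138+ libraries therefore checks the label and is no finding, and why GL7+ libraries lay below naive ones was not tested.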

How the results depend on the processing

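The count of members called between CD138+ and naive libraries (8931) stayed between 7451 and 9083 under the alternatives run. The lowest came from libraries thinned to 1318002 reads, the highest from voom on rebuilt reads. Leaving out a library gave 8433 to 8698, and the replicate block with the mouse gave 8530. TMM scaling moved the median over all members to 0.067 and the share of higher among called genes to 53.5%, against 47.4%. Quantile normalization turned the direction of 20 called members. For CD138+ against GL7+ the count (6263) fell to 3837 when thinned, was 7096 with the replicate block and 5651 to 5857 without a library each. Apart from the calls lost that are named above and in Mbtps2 and Parp1, the replicate block changed no call of the named genes.

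Leaving out a naive library takes genes measured only in naive cells out of the filter, and lists that hold them then rest on fewer genes. The dendritic cell list had a median of −1.659 to 0.405 without a library each, with 0.324 without naive replicate 1 and 0.405 without naive replicate 3. The cause of the other changes was not tested. Quantile normalization put Itgal at −0.095, Kdm6a at −0.032, Mbtps2 at 0.016, Rpl12 at −0.161, Rpl23a at −0.040, Rps3a1 at −0.141 and Tcf3 at −0.107. Parp1 stood at 0.044 and Rps15 at 0.033 with TMM scaling, and Rpl12 at −0.005 when thinned. Without a library each, Eef1a1 stood at −0.113 to 0.279, Kdm6a at −0.008 to 0.1, Rpl12 at −0.122 to 0.104, Rpl23a at −0.060 to 0.326, Rps15 at −0.291 to 0.041 and Rps3a1 at −0.028 to 0.207. Of the values of named genes under alternatives, 4916 kept direction and side of the threshold, 45 were no longer called, 8 became called and 18 turned. Of the list medians 772 stayed within 0.25 of the reported one, 39 moved further and 2 turned, beside medians within 0.1 of 0, whose sign is not counted. The NK cell list had no value without any of the naive libraries, since no member was left. Naive replicate 2, with 1318002 reads, limits low genes most.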
